A study of Mus musculus with 6 samples.

Results

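The genes described here are 10 genes that make, load and regulate classical MHC class I molecules, measured in splenic dendritic cells of mice given CpG beforehand and of untreated mice. They are the heavy chain genes H2-K1 and H2-D1, the light chain gene B2m, the peptide transporter genes Tap1 and Tap2, the loading factors Tapbp, Tapbpl and Pdia3, the trimming peptidase Erap1 and the regulator Nlrc5. Each was taken from the count table by its Entrez gene ID. The list was chosen with earlier results of these data known. The 10 genes are among 27179 in the table, and all of them were among the 11602 genes that passed the filter on low counts and were tested. The first group is 3 libraries of CD8-negative dendritic cells from CpG-pretreated C57BL/6 mice, and the other is 3 libraries of the same cells from untreated C57BL/6 mice. Both groups were enriched and sorted from spleen by flow cytometry and lysed without culture. The series title places the cells after a systemic inflammatory syndrome and calls them paralysed. CpG is DNA that Toll-like receptor 9 recognises. The sources used here do not give its sequence, dose, route and timing, the age and sex of the mice, or whether a library came from 1 mouse or a pool.

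MHC class I molecules carry peptides from inside the cell to its surface, where CD8+ T cells read them. The proteasome cuts the peptides, the TAP transporter moves them into the endoplasmic reticulum, and a peptide-loading complex of TAP, tapasin, ERp57 and calreticulin places them on a heavy chain held by beta-2-microglobulin. Dendritic cells use this route for their own and viral proteins and, by cross-presentation, for proteins they take up, and interferons and the co-activator NLRC5 are known to induce many of its genes.

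The libraries held 7855500 to 8228140 counts, so that 1 count was worth 0.123 to 0.127 CPM (counts scaled to library size), and a member had between 556 and 35993 counts in a library. Dendritic cell markers summed to 27045, 23862 and 27341 CPM in the CpG-pretreated libraries 2, 3 and 4. In the untreated libraries 2, 3 and 4 they summed to 29865, 25976 and 27074 CPM. Most of each sum was Cd74, the invariant chain gene, which is also in the class II list below. Cd74 averaged 21622 ± 2062 CPM in CpG-pretreated and 22930 ± 2220 CPM in untreated libraries (SD, n = 3 each). Cd8a, the gene whose product the sort excluded, averaged 3.58 ± 1.69 CPM in CpG-pretreated libraries and 2.48 ± 1.49 CPM in untreated libraries (SD, n = 3 each). Same-numbered libraries of both groups deviated together from their group means across genes (r = 0.479, 0.250 and 0.311 for numbers 2, 3 and 4). Results are therefore also given from a fit in which the replicate number was a block.

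The promoters of 4 members are shown because NLRC5 and interferon-activated factors are known to act on class I genes through short motifs in this stretch. Each is the 250 bases before the RefSeq start on GRCm38.p6, written in the direction of transcription. Capitals mark GAAA repeated after 2 bases of any kind, the core of an interferon-stimulated response element (ISRE), TGACG, the core of the X2 box, and CCAAT or its reverse complement ATTGG, the Y box. The windows are chr17:34187306-34187555 (plus strand) for Tap1, chr17:34000348-34000597 (minus strand) for H2-K1, chr2:122147437-122147686 (plus strand) for B2m and chr17:35262844-35263093 (plus strand) for H2-D1. The H2-K1 window, before the first of its 2 listed starts, lies inside that gene's annotated span, and the Tap1 window overlaps the first 25 bases of the divergent gene Psmb9.
Tap1: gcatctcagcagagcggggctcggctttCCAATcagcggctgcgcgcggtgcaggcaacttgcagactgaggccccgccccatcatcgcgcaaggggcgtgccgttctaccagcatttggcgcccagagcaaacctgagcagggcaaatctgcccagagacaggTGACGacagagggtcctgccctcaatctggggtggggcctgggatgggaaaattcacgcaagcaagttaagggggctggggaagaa
H2-K1: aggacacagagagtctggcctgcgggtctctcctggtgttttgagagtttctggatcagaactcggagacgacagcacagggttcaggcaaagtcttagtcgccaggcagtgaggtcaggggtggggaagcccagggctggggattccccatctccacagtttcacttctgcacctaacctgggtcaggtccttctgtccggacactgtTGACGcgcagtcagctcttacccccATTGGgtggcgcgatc
B2m: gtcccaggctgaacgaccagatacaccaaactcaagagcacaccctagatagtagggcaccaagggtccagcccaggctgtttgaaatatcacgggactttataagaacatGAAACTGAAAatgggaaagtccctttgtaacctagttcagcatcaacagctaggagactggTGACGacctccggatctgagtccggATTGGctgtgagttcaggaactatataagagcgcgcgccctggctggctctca
H2-D1: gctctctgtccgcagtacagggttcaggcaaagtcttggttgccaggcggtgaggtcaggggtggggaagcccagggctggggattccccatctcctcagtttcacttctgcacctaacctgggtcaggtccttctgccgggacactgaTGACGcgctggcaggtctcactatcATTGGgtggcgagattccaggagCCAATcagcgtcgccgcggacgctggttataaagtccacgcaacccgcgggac

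Among these sequences only that of B2m held the exact ISRE core, from 139 to 130 bases before the start. H2-K1 and H2-D1 both hold tttcacttct, which is close to the reverse complement of that core but is no exact match. Variants of the core were not searched for. TGACG stood once in each of the 4, and a Y box on either strand stood in each as well. In H2-K1, B2m and H2-D1 the TGACG was followed, after 20 bases, by ATTGG, while in Tap1 the only Y box lay upstream of TGACG. The spacing of 20 bases was noticed in these sequences before it was counted elsewhere. It occurred, read on either strand, in 30 of the 32851 listed mouse promoters (0.0913%), those of 26 genes. H2-M3, a non-classical class I gene, was another of them, and its log2 fold change of CpG-pretreated over untreated was -0.01. H2-K1 and H2-D1 also share an exact run of 47 bases, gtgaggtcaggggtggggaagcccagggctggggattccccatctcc, which begins 141 bases before the start of H2-K1 and 201 before that of H2-D1.

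Promoters were listed for 7 of the 10 members, and Tap2, Tapbpl and Nlrc5 had none. The Erap1 window (chr13:74639603-74639852) lies inside that gene's annotated span, as that of H2-K1 does. On both strands, CCAAT was found in 6 of the 7 (all but Erap1) and in 33.8% of all listed promoters. TGACG was found in 5 (Tap1, H2-K1, B2m, H2-D1 and Pdia3), against 17.8% of all. The loose core of a kappaB site, GGG and CC with 5 bases between them, was found in the same 5, against 45.8%. The ISRE core was in 1 of the 7 and in 2.98% of all, and the core of a gamma-activated site, TTC and GAA with 3 bases between them, was in 0 of the 7 and in 7.02% of all. The kappaB core can overlap its own reverse complement, and such overlaps were counted once per promoter. A match describes these letters and shows no binding, and a missing match does not show that variant sites are missing.

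**Figure D1:**
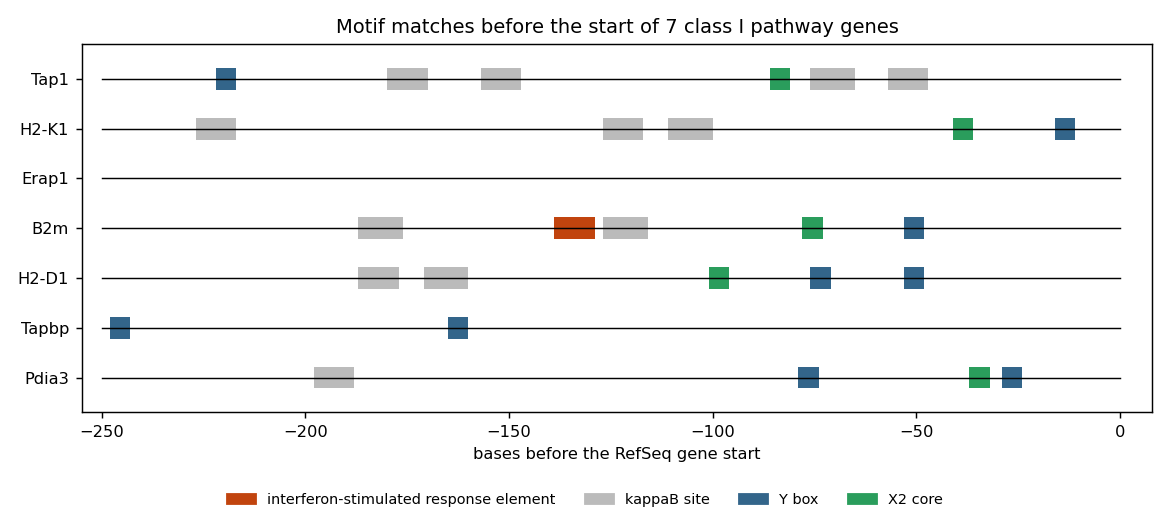
Matches to 4 motif cores in the 250 bases before the RefSeq start of the 7 members with a listed promoter, by bases before the start (x axis) and gene (rows). H2-K1, B2m and H2-D1 show an X2 core with a Y box 20 bases after it. Erap1, whose window lies inside its annotated span, shows no match.

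In CpG-pretreated over untreated libraries all 10 genes had positive log2 fold changes, between 0.20 for Pdia3 and 0.92 for Nlrc5, with a median of 0.32 against -0.005 for all tested genes. Of all tested genes, 48.9% lay above 0 and 15.3% had a fold change as high as that of Pdia3 or higher. In edgeR's quasi-likelihood test with Benjamini-Hochberg adjustment over all tested genes, 0 of the 10 were called at an adjusted p under 0.05, where 0.974% of tested genes were called, 0.474% higher. At an unadjusted p under 0.05, 8 of the 10 were higher, where 6.64% of tested genes were. DESeq2 called Tap1 and Nlrc5, where it called 2.21% of tested genes higher, and limma-voom called 0, where it called 0.121% higher. With the replicate number as a block, edgeR called 6 of the 10 higher (H2-K1, B2m, Tap1, Tapbpl, Erap1 and Nlrc5) and 0 lower, where it called 8.52% of tested genes, 4.73% higher and 3.78% lower. Without CpG-pretreated library 4, edgeR called Tap1, Tapbpl and Nlrc5, where it called 2.32% of the genes then tested higher. Leaving out any other single library gave 0 called members. In 7 of the 10 genes every CpG-pretreated library lay above every untreated one, which held for 9.2% of tested genes (the opposite held for 0 members and 9.47% of tested genes), and in Tap2, Tapbp and Pdia3 the groups overlapped. In bulk RNA, fewer cells of a type and less RNA per cell cannot be told apart.

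**Figure D2:**
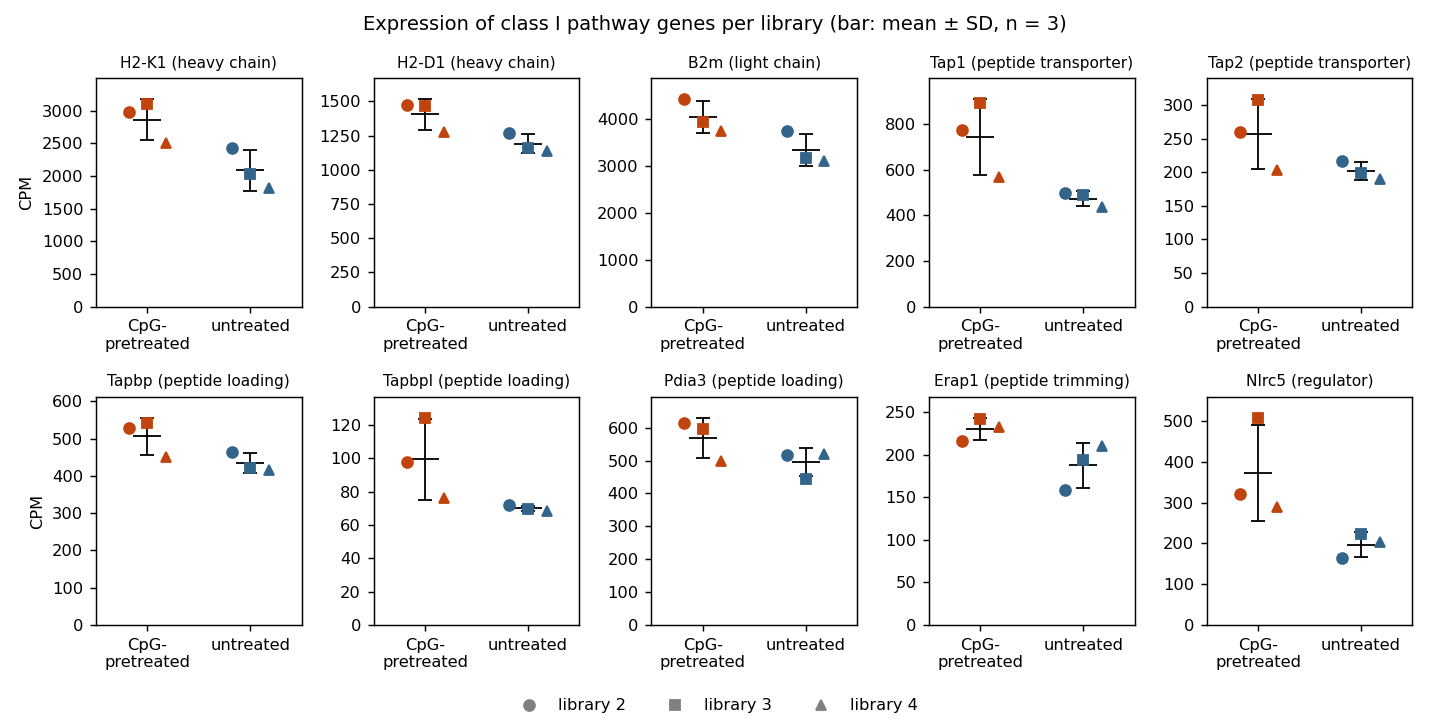
CPM of each of the 10 genes (y axis, from 0, own scale per gene) in the 3 CpG-pretreated and the 3 untreated libraries, with symbols for the library number and bars for the mean ± SD (n = 3). CpG-pretreated library 4 is the lowest of its group in 9 of the 10 genes.

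The heavy chains bind the peptide and face the T cell receptor. H2-K1 (gene ID 14972; chromosome 17, 33996012 to 34000619) had 2987, 3102 and 2513 CPM in the CpG-pretreated libraries 2, 3 and 4, compared with 2425, 2032 and 1810 CPM in the untreated libraries 2, 3 and 4. The groups did not overlap, and the highest untreated library lay just under the lowest CpG-pretreated one. The means were 2868 ± 312 CPM in CpG-pretreated and 2089 ± 311 CPM in untreated libraries (SD, n = 3 each), a log2 fold change of 0.46 (SE 0.13), or 1.37-fold with a 95% interval of 1.11 to 1.70. edgeR's adjusted p was 0.169, and 0.00176 with the block. H2-D1 (gene ID 14964; chromosome 17, 35263094 to 35267497) had 1474, 1465 and 1278 CPM in the CpG-pretreated libraries, compared with 1271, 1163 and 1141 CPM in the untreated ones. Its groups did not overlap either, by a margin of a few CPM. Its log2 fold change was 0.24 (SE 0.10; 95% interval 0.01 to 0.47), with an adjusted p of 0.359 in edgeR and of 0.0588 with the block, so that H2-D1 was called in neither fit. Of all 50-base words in the transcripts of H2-K1, 8.11% also occur in transcripts of other genes, H2-D1 and members of the H2-Q and H2-T families among them, and for H2-D1 the share is 14.3%. The sources used here do not say how reads that match several genes were counted, so the split between these genes is uncertain to that extent.

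B2m encodes beta-2-microglobulin, which every class I molecule needs to fold and reach the surface. B2m (gene ID 12010; chromosome 2, 122147687 to 122153082) had 4415, 3931 and 3746 CPM in the CpG-pretreated libraries, compared with 3735, 3164 and 3107 CPM in the untreated ones. The lowest CpG-pretreated library, number 4, was almost level with the highest untreated library, number 2. The resulting log2 fold change was 0.27 (SE 0.11; 95% interval 0.02 to 0.53), with an adjusted p of 0.344 in edgeR and of 0.0222 with the block. Both number 2 libraries were the highest of their group, and the difference between same-numbered libraries was 0.24, 0.31 and 0.27 log2 units for numbers 2, 3 and 4.

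Tap1 and Tap2 encode the 2 chains of the transporter that brings peptides into the endoplasmic reticulum. Tap1 (gene ID 21354; chromosome 17, 34187556 to 34197225) had 772.2, 892.8 and 566.0 CPM in the CpG-pretreated libraries, compared with 495.6, 487.3 and 434.5 CPM in the untreated ones. The groups were well apart, and the CpG-pretreated libraries were spread much more widely, with 744 ± 165 CPM, against 472 ± 33.1 CPM in untreated libraries (SD, n = 3 each). This was a log2 fold change of 0.65 (SE 0.16), or 1.57-fold, with an adjusted p of 0.103 in edgeR and of 0.000766 with the block. Tap2 (gene ID 21355; chromosome 17, 34204479 to 34216321) had 260.0, 307.0 and 203.3 CPM in the CpG-pretreated libraries, compared with 216.7, 198.9 and 189.3 CPM in the untreated ones. CpG-pretreated library 4 lay below untreated library 2, so the groups overlapped. The log2 fold change was 0.35 (SE 0.15; 95% interval 0.01 to 0.69), and neither the adjusted p of 0.377 in edgeR nor that of 0.0502 with the block was under the threshold. Without CpG-pretreated library 3 the log2 fold change of Tap2 was 0.21.

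Tapbp encodes tapasin, which holds empty class I molecules at TAP and favours tightly bound peptides. Tapbp (gene ID 21356; chromosome 17, 33919478 to 33929290) had 527.7, 542.5 and 450.1 CPM in the CpG-pretreated libraries, compared with 464.3, 421.4 and 416.4 CPM in the untreated ones. The groups overlapped through CpG-pretreated library 4, and the log2 fold change of 0.22 (SE 0.11) had an adjusted p of 0.442 in edgeR and of 0.103 with the block. Tapbpl encodes TAPBPR, a tapasin-related peptide editor that works outside the TAP complex. Tapbpl (gene ID 213233; chromosome 6, 125223927 to 125231860) had 97.88, 124.5 and 76.19 CPM in the CpG-pretreated libraries, compared with 71.89, 69.51 and 68.59 CPM in the untreated ones. The CpG-pretreated libraries ranged widely, at 99.5 ± 24.2 CPM, above untreated libraries that were nearly level, at 70.0 ± 1.70 CPM (SD, n = 3 each). The log2 fold change was 0.51 (SE 0.17), or 1.42-fold, with an adjusted p of 0.225 in edgeR and of 0.0297 with the block. Without CpG-pretreated library 3 the log2 fold change of Tapbpl was 0.32. Pdia3 encodes ERp57, a disulphide isomerase that also serves many other glycoproteins. Pdia3 (gene ID 14827; chromosome 2, 121413902 to 121438687) had 612.9, 595.0 and 497.7 CPM in the CpG-pretreated libraries, compared with 517.5, 445.3 and 521.0 CPM in the untreated ones. The groups overlapped, and CpG-pretreated library 4 lay under untreated library 4. Its log2 fold change was 0.20 (SE 0.12; 95% interval -0.06 to 0.47), with an adjusted p of 0.558 in edgeR and of 0.222 with the block. Without untreated library 3 the log2 fold change of Pdia3 was 0.13.

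Erap1 encodes the aminopeptidase that trims peptides to class I length inside the endoplasmic reticulum. Erap1 (gene ID 80898; chromosome 13, 74639573 to 74693205) had 216.1, 242.3 and 232.6 CPM in the CpG-pretreated libraries, compared with 158.6, 194.2 and 210.2 CPM in the untreated ones. The groups did not overlap, and this was the member in which CpG-pretreated library 4 was not the lowest of its group. The log2 fold change was 0.30 (SE 0.12), or 1.23-fold, with an adjusted p of 0.353 in edgeR and of 0.0321 with the block. In both groups library 2 was the lowest for Erap1. Deviations from the group mean decreased with gene length in both number 2 libraries. The Spearman correlation across 11602 genes was -0.545 in CpG-pretreated library 2 and -0.669 in untreated library 2. It was 0.234 and 0.394 in CpG-pretreated libraries 3 and 4, and 0.531 and 0.495 in untreated libraries 3 and 4. The part of this in the values of Erap1 and of the other members was not tested. The Erap1 span shares its last 840 bases with Cast, which encodes calpastatin and had 80.1 to 83.2 CPM in CpG-pretreated and 63.3 to 87.9 CPM in untreated libraries, and the sources used here do not give the strand setting of the counts.

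NLRC5 is a nucleotide-binding protein that moves to the nucleus and switches on class I heavy chain, B2m, Tap1 and immunoproteasome genes, as CIITA does for class II genes. Nlrc5 (gene ID 434341; chromosome 8, 94434335 to 94527272) had 320.7, 508.4 and 289.9 CPM in the CpG-pretreated libraries, compared with 164.5, 223.8 and 202.6 CPM in the untreated ones. The groups were clearly apart, with library 3 the highest in each. The means were 373 ± 118 CPM in CpG-pretreated and 197 ± 30.02 CPM in untreated libraries (SD, n = 3 each), a log2 fold change of 0.92 (SE 0.22), or 1.89-fold with a 95% interval of 1.35 to 2.66. edgeR's adjusted p was 0.0900, and 0.00145 with the block. Nlrc5 had the largest fold change of the 10 genes in both fits.

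**Figure D3:**
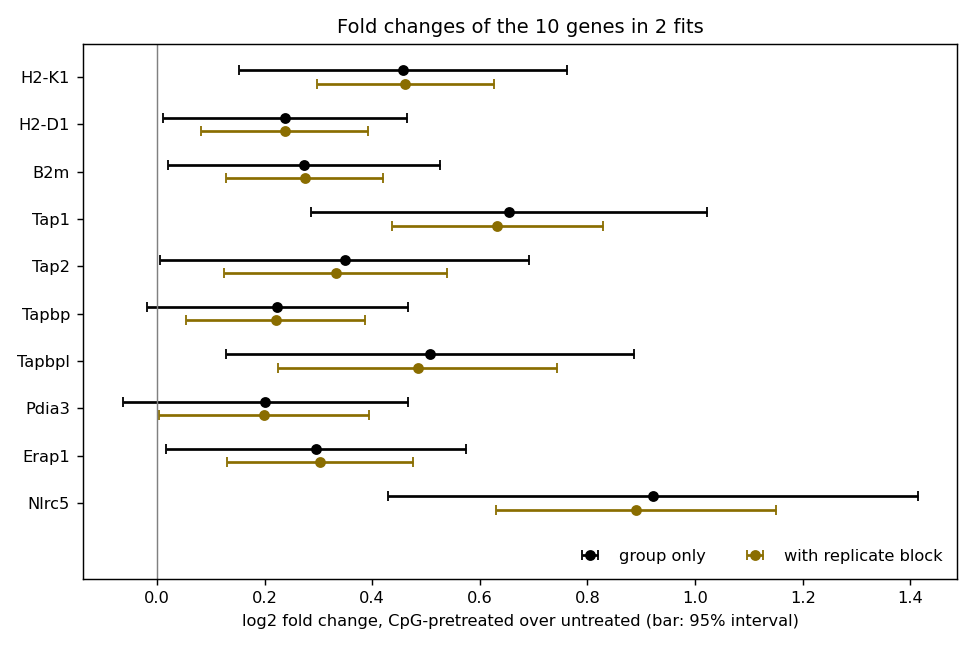
Log2 fold change of CpG-pretreated over untreated libraries (x axis) for the 10 genes, with 95% intervals, in the fit with the groups alone and in the fit that also holds the replicate number as a block. The estimates differ little between the fits, and the intervals are narrower with the block.

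The difference varied between the 3 pairs of same-numbered libraries. In all, 9 genes, every member but Pdia3, were higher in the CpG-pretreated library of every pair, which held for 22.2% of tested genes. Pair 4 gave the smallest difference in 8 of the 10 genes (34.5% of tested genes) and pair 3 the largest in 9 of the 10 (31.1% of tested genes). The median difference of the 10 genes was 0.28, 0.51 and 0.16 log2 units in pairs 2, 3 and 4, where the medians of all tested genes were 0.01, -0.006 and 0. For Tapbpl the pairs gave 0.44, 0.84 and 0.15, and for Nlrc5 0.96, 1.18 and 0.52. H2-K1 gave 0.30, 0.61 and 0.47, with its smallest difference in pair 2.

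**Figure D4:**
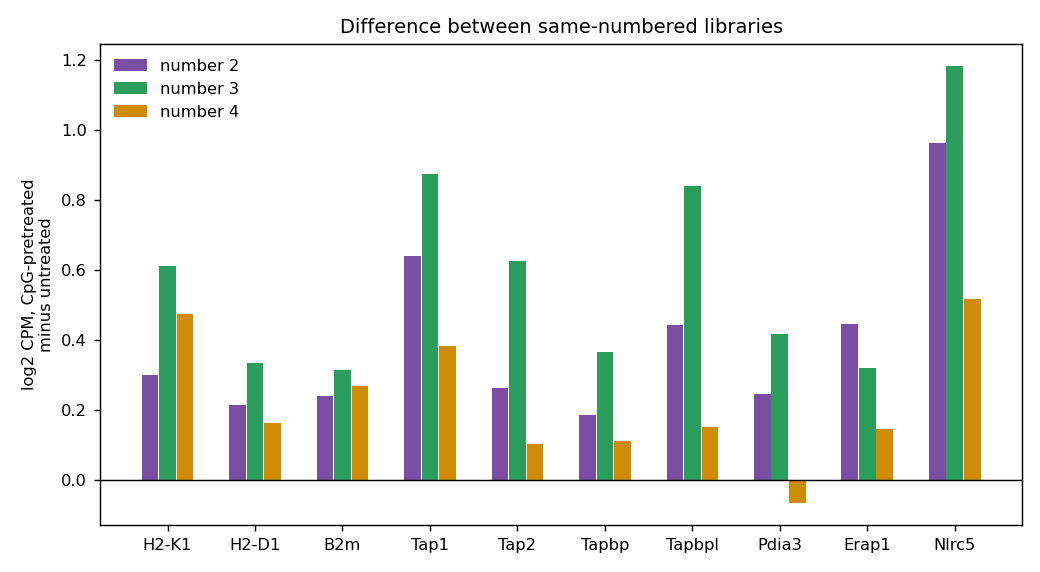
Difference in log2 CPM, CpG-pretreated minus untreated (y axis), for each of the 10 genes between the libraries numbered 2, 3 and 4. Pair 3 is the largest in 9 genes, and the only bar below 0 is that of Pdia3 in pair 4.

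Levels per gene length (RPKM) put the members in nearly the same order in both groups. B2m averaged 4697 ± 402 RPKM in CpG-pretreated libraries and 3887 ± 405 RPKM in untreated libraries (SD, n = 3 each, as for the levels that follow). Next came H2-K1, with 1742 ± 190 RPKM in CpG-pretreated and 1269 ± 189 RPKM in untreated libraries, and then H2-D1, with 810 ± 64.0 RPKM in CpG-pretreated and 686 ± 40.2 RPKM in untreated libraries. In CpG-pretreated libraries there followed Tap1, Pdia3 and Tapbp, whose libraries overlapped from each to the next, then Tap2, and then Erap1, Nlrc5 and Tapbpl, which overlapped likewise. In untreated libraries the order after H2-D1 was Pdia3, Tap1, Tapbp, Tap2, Erap1, Tapbpl and Nlrc5, and the neighbours whose libraries overlapped were Tap1 and Tapbp. Nlrc5 had 53.7 ± 17 RPKM in CpG-pretreated libraries, between Erap1 and Tapbpl, and was the lowest of the 10 in untreated libraries, at 28.4 ± 4.32 RPKM.

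Partner genes were compared within each library as ratios of their RPKM. Tap1 over Tap2 was 2.51, 2.45 and 2.35 in CpG-pretreated libraries 2, 3 and 4, compared with 1.93, 2.07 and 1.94 in untreated libraries. H2-K1 over H2-D1 was 2.14, 2.23 and 2.08 in the CpG-pretreated libraries, compared with 2.01, 1.84 and 1.67 in the untreated ones. Tapbp over Tap1 was 0.733, 0.652 and 0.853 in the CpG-pretreated libraries, compared with 1.005, 0.928 and 1.03 in the untreated ones. In each of these ratios the groups did not overlap, with Tap1 and H2-K1 relatively more abundant after CpG. Tapbpl over Tapbp was 0.245, 0.303 and 0.224 in the CpG-pretreated libraries, compared with 0.205, 0.218 and 0.218 in the untreated ones. The summed heavy chains over B2m were 0.518, 0.596 and 0.518 in the CpG-pretreated libraries, compared with 0.507, 0.516 and 0.485 in the untreated ones. The last of the 6 ratios, Nlrc5 over Ciita, which encodes the class II co-activator, was 0.205, 0.245 and 0.138 in the CpG-pretreated libraries, compared with 0.134, 0.119 and 0.103 in the untreated ones. In these ratios, too, the groups did not overlap. Two-sided exact permutation tests gave 0.1 for each ratio, also after adjustment over the 6, which is the smallest p that 3 against 3 libraries allow. The ratios were chosen with the members' values known. Their genes differ in length, and the part of the gene-length deviations given above in these ratios was not tested.

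Tap1 and Tap2 lie in the class II region of the MHC on chromosome 17, next to immunoproteasome genes. In the order of the chromosome, Psmb9 (34182030 to 34187330) ends 225 bases before Tap1, Psmb8 (34198195 to 34201454) begins 969 bases after it, and Tap2 begins 3024 bases after Psmb8. Their log2 fold changes were 0.49 for Psmb9, 0.65 for Tap1, 0.42 for Psmb8 and 0.35 for Tap2. On one side the class II genes H2-DMb2 and H2-DMb1 had -0.02 and 0.05, and on the other side H2-Ob and H2-Ab1 had -0.25 and -0.08. None of these 8 genes was called by edgeR without the block. With it Psmb9, Tap1 and Psmb8 were called, all higher, where 4.73% of tested genes were called higher.

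The immunoproteasome cuts peptides suited to class I, and the tested genes for its subunits, its assembly factor and the PA28 activator all had positive fold changes. Of 6 tested genes, edgeR called 0 (3 at an unadjusted p under 0.05, 0 by DESeq2 and 0 by limma-voom) and, with the block, 3 higher, with a list median of 0.32. Among all tested genes, 6.64% were higher at an unadjusted p under 0.05 and 4.73% were called higher with the block. The groups overlapped in each of the 6. The catalytic subunit gene Psmb8 averaged 537 ± 106 CPM in CpG-pretreated libraries and 400 ± 65.3 CPM in untreated libraries, with adjusted p of 0.338 in edgeR and 0.0214 with the block. Psmb9, for another catalytic subunit, averaged 352 ± 63.1 CPM in CpG-pretreated and 251 ± 42.8 CPM in untreated libraries (0.247 and 0.00272 with the block). Psmb10, for the remaining one, averaged 194 ± 38.5 CPM in CpG-pretreated and 132 ± 21.3 CPM in untreated libraries (0.193 and 0.00300 with the block). Psme1, a PA28 subunit gene, had a log2 fold change of 0.22 with an adjusted p of 0.703, and was not called with the block. All of these means are ± SD with n = 3 per group.

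Chaperones that fold class I together with many other proteins had smaller fold changes. Of 16 tested genes edgeR called 0 with or without the block, as did DESeq2 and limma-voom, and 0 had an unadjusted p under 0.05. Their median log2 fold change was 0.14, with 14 of 16 above 0. Calr, for the calreticulin of the loading complex, had 0.19 (adjusted p 0.541 in edgeR), Hsp90b1, for the chaperone GRP94, 0.13 (0.771), and Hspa5, for the chaperone BiP, 0.03 (0.968). The 13 genes for other peptidases and cross-presentation had a median of 0.04, and edgeR, DESeq2 and limma-voom called 0 of them, with 0 at an unadjusted p under 0.05 and 0 with the block. Among them Wdfy4, needed for cross-presentation, had -0.05 (0.969), Rab43, a vesicle GTPase gene, 0.02 (0.972), and Cybb, for the phagosomal NADPH oxidase, 0.05 (0.954).

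Of the factors that act on class I promoters, 11 of 13 had log2 fold changes above 0, where 48.9% of tested genes did. Of 13 tested genes edgeR called 1 higher (3 at an unadjusted p under 0.05, 2 by DESeq2 and 0 by limma-voom) and, with the block, 2 higher, Irf1 and Ezh2. The shares of all tested genes that were higher were 0.474% (edgeR), 6.64% (unadjusted p), 2.21% (DESeq2), 0.121% (limma-voom) and 4.73% (block). Irf1, for an interferon-induced activator, averaged 389 ± 86.1 CPM in CpG-pretreated and 268 ± 17.6 CPM in untreated libraries (adjusted p 0.175, and 0.00845 with the block). Ezh2, for a histone methyltransferase known to silence class I genes in tumours, averaged 160 ± 17.7 CPM in CpG-pretreated and 130 ± 7.70 CPM in untreated libraries (0.300, and 0.0323 with the block). Rfx5, Rfxap and Rfxank, whose products form the RFX complex to which NLRC5 and CIITA are recruited, had log2 fold changes of -0.06, 0.26 and -0.0007, none called in either fit. Nfkb1, for an NF-kappaB subunit, had 0.09 (adjusted p 0.857). The list median was 0.13.

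The class II genes, which present taken-up antigen to CD4+ T cells, had a median log2 fold change of -0.07 over 11 genes with Ciita, 3 of them above 0. The edgeR test called 1 of them, H2-Eb2, which was lower with 341 ± 34.8 CPM in CpG-pretreated and 525 ± 18.1 CPM in untreated libraries (SD, n = 3 each; log2 fold change -0.62, SE 0.10, adjusted p 0.0434, and 0.000289 with the block), where 0.5% of tested genes were called lower. Cd74, the invariant chain gene, had -0.08 (0.863), and H2-Aa and H2-Eb1, which encode class II chains, each had -0.07 (0.915 and 0.917). Ciita averaged 1565 ± 247 CPM in CpG-pretreated and 1384 ± 331 CPM in untreated libraries (log2 fold change 0.18, adjusted p 0.821, and 0.143 with the block). The difference between the class I and class II lists was not tested.

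**Figure D5:**
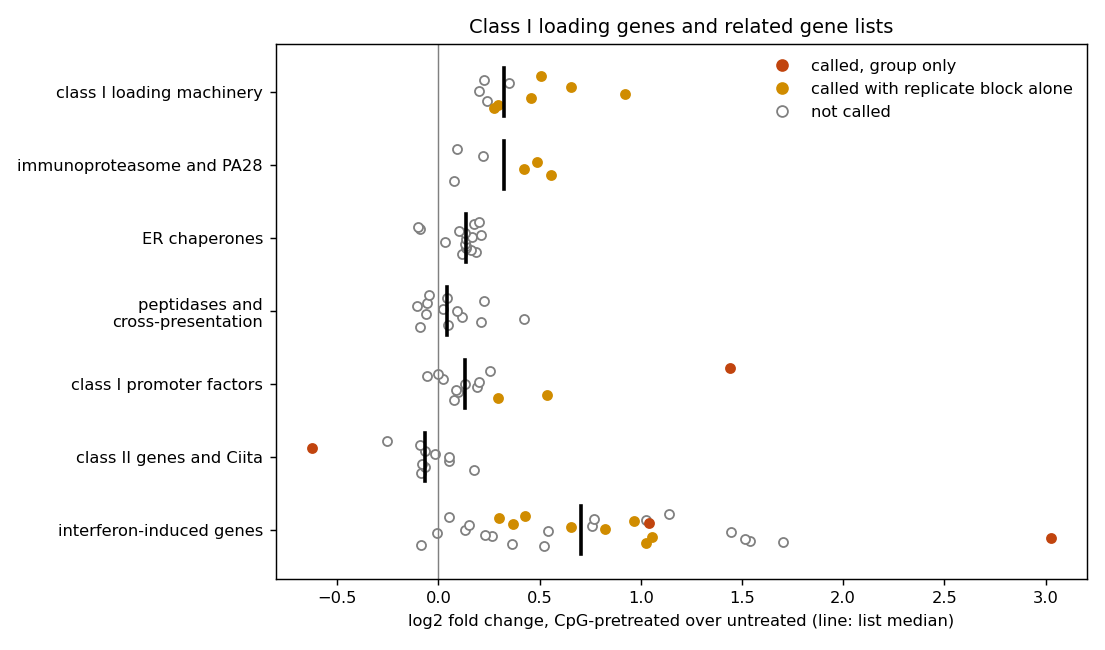
Log2 fold change of CpG-pretreated over untreated libraries (x axis) for each gene of the class I loading machinery and of 6 related lists (rows), with a line at each list's median and colour for the fits in which a gene was called. The class I members and the immunoproteasome list have medians of 0.32, the class II list one of -0.07 and the interferon-induced list one of 0.71.

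Interferon-induced genes outside the pathway had a median log2 fold change of 0.71, with 26 of 28 above 0. edgeR called 2 higher, where 0.474% of tested genes were, and with the block 10 higher, where 4.73% were. DESeq2 called 12 and limma-voom 2 of the 28, and 20 had an unadjusted p under 0.05, all of them higher. The shares of all tested genes that were higher were 2.21%, 0.121% and 6.64%, in that order. Oasl1, a 2'-5' oligoadenylate synthetase-like gene, averaged 25.4 ± 3.65 CPM in CpG-pretreated and 12.4 ± 1.24 CPM in untreated libraries (log2 fold change 1.04, adjusted p 0.0388). Ifi44 averaged 32.3 ± 11.9 CPM in CpG-pretreated and 3.95 ± 2.36 CPM in untreated libraries (3.02, 0.0379). Ifi47, an interferon-induced GTPase gene, had 1.06 (adjusted p 0.0704, and 0.0207 with the block). Stat2, which relays type I interferon signals, had 0.30 (0.360, and 0.0447 with the block), Irf7, for an interferon-amplifying factor, 0.54 (0.219), and Cd274, for PD-L1, -0.09 (0.885). The list's median difference was 0.62, 1.03 and 0.21 log2 units in pairs 2, 3 and 4, the same order of pairs as in the class I members.

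The 10 members also varied together across the 6 libraries, with Pearson correlations between pairs of members of 0.23 to 0.99 and a median of 0.84, which include the difference between the groups. The 5 genes outside the set whose log2 CPM followed the members' mean profile most closely, among 8977 candidates, were Irgm1 (r = 0.999), Igtp (0.998), Tgtp1 (0.997), Oasl2 (0.997) and Ifi47 (0.996). Of these, 4 encode interferon-induced GTPases (Tgtp1 has a near-identical copy, Tgtp2, so that its counts are uncertain) and Oasl2 a 2'-5' oligoadenylate synthetase-like protein. Irgm1 had 249.2, 275.9 and 166.0 CPM in the CpG-pretreated libraries, compared with 143.7, 121.8 and 124.6 CPM in the untreated ones. These correlations are a description over 6 libraries that share their depth and preparation.

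Markers of conventional type 2 dendritic cells, a CD8-negative subset, summed to 3046, 3130 and 4075 CPM in CpG-pretreated and 3506, 4023 and 4140 CPM in untreated libraries. Their median log2 fold change was -0.20, and their median difference was -0.40, -0.47 and 0.07 log2 units in pairs 2, 3 and 4. Of the 12, edgeR called 1 lower (Esam) and, with the block, 4 lower, where 0.5% and 3.78% of tested genes were called lower. DESeq2 called Esam, Dtx1 and Cd209a, and limma-voom called 0, where they called 3.67% and 0.353% of tested genes in either direction. In 5 of the 12 every CpG-pretreated library lay below every untreated one, which held for 9.47% of tested genes. Sums of markers of some other cells were highest in CpG-pretreated libraries 2 and 3. Erythroid markers summed to 1502, 1353 and 320 CPM in the CpG-pretreated libraries 2, 3 and 4, compared with 50.3, 143 and 48.4 CPM in the untreated ones. Hba-a1 was at 0 in every library. Of 10 tested, 5 were called higher by edgeR, 5 with the block, 9 by DESeq2 and 0 by limma-voom. The shares of all tested genes called higher in these fits were 0.474%, 4.73%, 2.21% and 0.121%, in that order. Markers of conventional type 1 dendritic cells, the subset known for cross-presentation, summed to 260, 329 and 161 CPM in CpG-pretreated libraries, compared with 137, 156 and 167 CPM in the untreated ones, so that CpG-pretreated libraries 2 and 3 were high and library 4 was within the untreated range. Among them Xcr1 averaged 9.48 ± 4.97 CPM in CpG-pretreated and 3.92 ± 0.660 CPM in untreated libraries, and Clec9a 20.7 ± 4.42 CPM in CpG-pretreated and 20.5 ± 3.60 CPM in untreated libraries (SD, n = 3 each). Naaa and Ifi205 held most of the sum in CpG-pretreated libraries 2 and 3. Ifi205 had 45.87, 75.07 and 8.816 CPM in the CpG-pretreated libraries, compared with 4.67, 3.876 and 4.917 CPM in the untreated ones. Naaa had 110.6, 113.5 and 72.29 CPM in the CpG-pretreated libraries, compared with 62.18, 63.51 and 75.47 CPM in the untreated ones. Fold changes of 9 of the 10 were above 0, and Cadm1 had -0.40. The list's median difference was 1.01, 0.82 and -0.06 log2 units in pairs 2, 3 and 4. Of these 10, edgeR called 0 (5 at an unadjusted p under 0.05, 3 by DESeq2, 0 by limma-voom and 3 higher with the block). The shares of all tested genes are those given for the erythroid markers, and 6.64% were higher at an unadjusted p under 0.05. Neutrophil and monocyte markers summed to 214, 159 and 117 CPM in CpG-pretreated and 134, 99.3 and 103 CPM in untreated libraries. The median difference of the 8 tested was 0.80, 0.82 and 3.22 log2 units in pairs 2, 3 and 4. The median was thus largest in pair 4, while the sums lay closest together in that pair. Red pulp macrophage markers were lower after CpG and summed to 335, 397 and 454 CPM in CpG-pretreated and 480, 607 and 611 CPM in untreated libraries. Most of that sum was Adgre1, with 302 ± 48.9 CPM in CpG-pretreated and 352 ± 21.2 CPM in untreated libraries (SD, n = 3 each; log2 fold change -0.22, edgeR adjusted p 0.559). The list's median log2 fold change was -1.09. Of its 11 genes edgeR called 3 lower (C1qa, C1qc and Vcam1) and, with the block, 8 lower, DESeq2 called 6 and limma-voom 1. The shares of all tested genes are those given for the type 2 markers. Sums for B cells, for T and NK cells and for plasmacytoid dendritic cells were between 40.7 and 90.2 CPM in every library. The part of these cells in the members' differences was not tested.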

How the data were processed

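Read counts per Entrez gene ID were deposited by the authors for 6 libraries of polyadenylated RNA, grouped by the treatment label (CpG or none). The counts were made with CASAVA and featureCounts on mm10, per the submitters' processing notes, which name no versions. The sources used here do not give the aligner, the strand setting or the treatment of multi-mapping reads. The series text calls the samples biological replicates, and nothing says that each came from a separate mouse, so p-values cover only the spread among these libraries. No 2 libraries of a group agreed within sampling noise (chi-square per degree of freedom 3.30 to 20.9).

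Symbols and positions came from RefSeq on GRCm38.p6 (25275 IDs matched, 1904 did not, with 0.327% of counts). The tests used edgeR 4.0.16 in R 4.3.3 with filterByExpr (minimum count 10, minimum total 15), TMM, the two-sided quasi-likelihood F test with the group alone, and Benjamini-Hochberg adjustment over 11602 genes, with a gene called at an adjusted p under 0.05. CPM use TMM library sizes, RPKM the deposited gene lengths, and log2 CPM a prior count of 2. Alternatives were DESeq2 1.42.0, voom from limma 3.58.1, other scalings and filters, left-out libraries and a replicate block. Labels do not say what a replicate number marks. Each same-numbered pair correlated above 0.1 in its deviations, the others from -0.394 to 0.066, so the libraries were treated as paired by number, on the data alone. The models were tested on simulated counts. These held no effect of the replicate number, so they could not test the use of the block.

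The members and lists were chosen with earlier results of these data known. Besides the members, the text names for each pathway list the genes called, the 3 with the highest mean CPM and the 2 with the largest fold change among those called with the block, then the 5 genes of most similar profile. H2-M3, the RFX genes, Ciita, Cast, Cd8a, Hba-a1 and the MHC neighbours were added for their place or role. A further gene that this rule would name is not reported here.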

Additional observations from a re-analysis of the deposited data

How the results depend on the processing

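The 10 members were recomputed under 18 alternatives, which gave 180 values. The alternative without the erythroid marker genes was chosen after seeing the data. No value changed sign, 169 kept their call and 11 became called. The count of called members was 0 in the edgeR fit with the groups alone, 6 with the replicate block and 2 with DESeq2, and it was 0 to 3 when libraries or pairs were left out, with 3 reached without CpG-pretreated library 4. The count of called genes was 113, against 988 with the replicate block (106 of the 113 were among them in the same direction), 426 with DESeq2, 41 with limma-voom and 189 without a filter on low counts. It was 0 to 386 with libraries or pairs left out, namely 0, 0 and 386 without CpG-pretreated library 2, 3 or 4 and 34, 2 and 1 without untreated library 2, 3 or 4. Without the pair of number 2, 3 or 4 it was 67, 0 and 154. Of the calls, 48.7% were higher in the edgeR fit, 60.1% with DESeq2, 34.1% with limma-voom and 71.2% without CpG-pretreated library 4. The causes of these changes were not tested. Log2 fold changes ranged from 0.64 to 1.09 for Nlrc5 and from 0.51 to 0.82 for Tap1. Those of 3 members moved by over 1.5 times: without CpG-pretreated library 3 that of Tap2 was 0.21 and that of Tapbpl 0.32, and without the pair of number 3 they were 0.19 and 0.31. That of Pdia3 was 0.13 without untreated library 3, 0.10 without the pair of number 3 and 0.32 without the pair of number 4. No scaling moved the median of all genes by over 0.1 log2 units. In the fit with the groups alone the 95% intervals of Pdia3 and Tapbp included 0, and with the replicate block they did not. Counting error limits these values little, since each member had at least 556 counts in every library.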
